A study of Mus musculus with 6 samples.

Results

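The genes described here are 10 markers of the mural cells of blood vessels, taken from the 38293 genes of the count table by matching their Ensembl identifiers to their symbols. The pericyte genes are Pdgfrb, Cspg4, Rgs5, Kcnj8 and Abcc9, and the contractile smooth muscle genes are Acta2, Myh11, Tagln, Cnn1 and Smtn. Each symbol matched 1 identifier, and all 10 genes passed the filter on low counts. RNA depleted of ribosomal RNA was sequenced from heart tissue of 3 WT and 3 Zeb2 cKO mice, collected 14 days after permanent occlusion of the LAD, the left anterior descending coronary artery. The mice were adult males of a backcrossed C57BL/6J strain, which the methods give as between 8 and 10 weeks old. In both groups the methods give a floxed Zeb2 allele (Zeb2 fl/fl). In the Zeb2 cKO mice Cre was driven by the Myh6 promoter, so that Zeb2, a zinc finger transcription factor, was deleted in cardiomyocytes and not in mural cells. All 6 hearts were infarcted, and sham hearts were not analysed here. The labels place the tissue in the border of the infarct, whereas the methods name the remote zone. The comparison asks how the levels of mural cell genes differ when cardiomyocytes lack Zeb2.

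Pericytes wrap the capillaries and share a basement membrane with the endothelium. They are drawn to new vessels by PDGF-B, which endothelial cells release and the receptor PDGFRB on the pericyte binds. Smooth muscle cells surround arteries and arterioles and carry a contractile set of actin, myosin and regulatory proteins, much of it under the control of serum response factor (SRF) and its partner myocardin, which act at DNA elements called CArG boxes. Several of these genes are not restricted to mural cells: fibroblasts also express Pdgfrb, activated fibroblasts of a healing infarct also express Acta2 and Tagln, and cardiomyocytes also express Abcc9.

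Libraries held between 37288174 and 51136331 counts, of which 60.5% to 67.0% fell on mitochondrially encoded genes and between 14301225 and 19024394 on all others. Values are given as CPM, the counts scaled to a common library size after TMM normalization, and n is 3 mice per group. WT replicate 2 stood apart from the other 5 libraries. The summed level of 20 fibroblast genes was 12212 CPM in it and between 2470 and 3220 CPM in the others, and that of 12 macrophage genes was 965 CPM against 241 to 336 CPM. For 12 cardiomyocyte genes the sum was 35734 CPM against 57278 to 70031 CPM. Fold changes are therefore given with and without WT replicate 2. Zeb2 itself was at 83.1 ± 29.0 CPM (SD, n = 3) in WT and at 66.2 ± 6.51 CPM (SD, n = 3) in Zeb2 cKO tissue, with a log2 fold change of -0.33 (-0.0058 without WT replicate 2), counted over all cells of the tissue.

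RefSeq stretches upstream of the transcription start (GRCm38.p6) were at hand for 7 of the 10 genes, and Pdgfrb, Myh11 and Tagln had no entry. They are shown for Rgs5, the pericyte gene with the highest level, and for the neighbours Kcnj8 and Abcc9, whose counts kept a nearly fixed ratio. The stretches end at the first base before the first exon that Gencode M21 annotates. Rgs5 lies on the plus strand (chr1:169655251-169655500), Kcnj8 on the minus strand (chr6:142571615-142571864) and Abcc9 on the minus strand (chr6:142702316-142702524), each read 5′ to 3′ along its gene:
Rgs5: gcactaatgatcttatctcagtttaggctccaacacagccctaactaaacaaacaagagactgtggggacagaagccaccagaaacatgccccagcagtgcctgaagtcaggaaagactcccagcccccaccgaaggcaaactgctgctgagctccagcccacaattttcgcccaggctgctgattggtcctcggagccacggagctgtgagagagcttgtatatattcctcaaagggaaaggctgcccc
Kcnj8: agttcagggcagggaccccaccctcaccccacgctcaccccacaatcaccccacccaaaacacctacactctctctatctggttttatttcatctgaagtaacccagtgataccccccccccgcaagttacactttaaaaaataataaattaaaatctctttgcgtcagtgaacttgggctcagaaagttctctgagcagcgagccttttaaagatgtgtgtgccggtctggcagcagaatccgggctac
Abcc9: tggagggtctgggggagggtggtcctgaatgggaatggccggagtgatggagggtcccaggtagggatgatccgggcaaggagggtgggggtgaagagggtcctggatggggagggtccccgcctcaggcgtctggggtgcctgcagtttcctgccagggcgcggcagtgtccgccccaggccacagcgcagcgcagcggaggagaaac

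Among the 7 genes, in the 250 bases before the RefSeq start, the elements closest to a CArG box were both in Acta2. Relative to the mean, this member had the largest SD among the Zeb2 cKO libraries (53.5%). Both elements lie on the minus strand of chromosome 19, at chr19:34255438-34255467 and chr19:34255388-34255417, in what Gencode annotates as an exon. Capitals mark the CArG-type element, which starts 84 bases before the RefSeq start in the first window and 34 bases before it in the second:
Acta2 upper element: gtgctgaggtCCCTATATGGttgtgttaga
Acta2 lower element: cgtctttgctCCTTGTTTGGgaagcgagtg
Both elements have 1 inner base other than A or T. That looser form occurred in 8.59% of 32851 RefSeq stretches of the same length, and the strict CArG box in 1.47% of them and in 0 of the 7. The letters CACCTG, to which ZEB-family factors bind, were searched on both strands and occurred in 17.2% of all stretches and in 0 of the 7. TATAAA occurred in 12.4% and in 0 of the 7. These counts describe letters in a short window and not binding sites.

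Pdgfrb (ENSMUSG00000024620, plus strand, chr18:61045150-61085061) encodes the PDGF-B receptor through which pericytes are recruited. It was at 78.6, 127 and 68.5 CPM in WT replicates 1, 2 and 3 (91.4 ± 31.3, SD) and at 66.5, 74.8 and 78.9 CPM in Zeb2 cKO replicates 1, 2 and 3 (73.4 ± 6.35, SD). The highest value belonged to WT replicate 2, and the other 5 libraries lay within one narrow band in which the groups overlapped. Its log2 fold change, Zeb2 cKO against WT, was -0.32 (standard error 0.24). Without WT replicate 2 it was 4.28e-05 (standard error 0.12), so that the lower mean in Zeb2 cKO tissue came with 1 WT library.

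Cspg4 (ENSMUSG00000032911, plus strand, chr9:56865033-56899870) encodes the NG2 proteoglycan on the pericyte surface. In replicate order it was at 33.0, 17.8 and 24.0 CPM in WT (25.0 ± 7.63, SD) and at 20.8, 24.9 and 32.2 CPM in Zeb2 cKO tissue (26.0 ± 5.80, SD). Both groups spanned nearly the same range, and WT replicate 2 was the lowest library, opposite to its place for Pdgfrb. The log2 fold change was 0.058 (standard error 0.26), and -0.13 (standard error 0.21) without that library.

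Rgs5 (ENSMUSG00000026678, plus strand, chr1:169655501-169695813) encodes a regulator of G protein signalling that shortens the response of the pericyte to vasoactive receptors. It was at 530, 329 and 508 CPM in WT (455 ± 110.2, SD) and at 482, 492 and 579 CPM in Zeb2 cKO tissue (518 ± 53.4, SD). The 3 Zeb2 cKO libraries and WT replicates 1 and 3 overlapped, with WT replicate 2 below them all. The log2 fold change was 0.19 (standard error 0.23), and 0.00047 (standard error 0.13) without WT replicate 2.

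Kcnj8 (ENSMUSG00000030247, chr6:142564837-142571614) and Abcc9 (ENSMUSG00000030249, chr6:142587862-142702315) are neighbours on the minus strand and encode the pore and the sulphonylurea receptor of the ATP-sensitive potassium channel of mural cells. Kcnj8 was at 22.2, 12.0 and 17.4 CPM in WT (17.2 ± 5.10, SD) and at 20.4, 23.3 and 19.5 CPM in Zeb2 cKO tissue (21.1 ± 2.03, SD). Abcc9 was at 287, 125 and 230.2 CPM in WT (214 ± 82.1, SD) and at 287, 294 and 236 CPM in Zeb2 cKO tissue (272 ± 31.8, SD). Both subunits followed the same order at the extremes, lowest in WT replicate 2 and highest in Zeb2 cKO replicate 2, and WT replicate 1 overlapped the Zeb2 cKO group for each. The log2 fold changes were 0.29 (standard error 0.22) for Kcnj8 and 0.35 (standard error 0.30) for Abcc9. Without WT replicate 2 they were 0.093 (standard error 0.14) and 0.077 (standard error 0.15). Without WT replicate 1 they were 0.52 (standard error 0.20) and 0.62 (standard error 0.30).

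Acta2 (ENSMUSG00000035783, minus strand, chr19:34241090-34255590) encodes smooth muscle alpha-actin. It was at 36.8, 40.2 and 47.3 CPM in WT (41.4 ± 5.37, SD) and at 31.1, 85.4 and 43.2 CPM in Zeb2 cKO tissue (53.2 ± 28.5, SD). The Zeb2 cKO libraries held both the lowest and the highest value, and the 3 WT libraries lay between them. The log2 fold change of 0.36 (standard error 0.36) was nearly the same without WT replicate 2, at 0.34 (standard error 0.38), and turned to -0.15 without Zeb2 cKO replicate 2.

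Myh11 (ENSMUSG00000018830, minus strand, chr16:14194535-14291372) encodes the smooth muscle myosin heavy chain, a marker largely restricted to smooth muscle. It was at 23.9, 11.5 and 14.6 CPM in WT (16.6 ± 6.46, SD) and at 17.8, 28.6 and 16.0 CPM in Zeb2 cKO tissue (20.8 ± 6.84, SD). Zeb2 cKO replicate 2 was again the highest library and WT replicate 2 the lowest, and the others overlapped. Its log2 fold change was 0.32 (standard error 0.33), and 0.11 (standard error 0.29) without WT replicate 2. Over the fits that left out 1 library it ranged from 0.025 to 0.68.

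Tagln (ENSMUSG00000032085, minus strand, chr9:45929619-45936058) encodes transgelin, an actin cross-linker of smooth muscle cells and activated fibroblasts. It was at 9.90, 20.8 and 9.74 CPM in WT (13.5 ± 6.33, SD) and at 9.55, 11.8 and 9.31 CPM in Zeb2 cKO tissue (10.2 ± 1.36, SD). Apart from WT replicate 2, the libraries of both groups overlapped within a few CPM. The log2 fold change was -0.40 (standard error 0.31), and 0.058 (standard error 0.13) without WT replicate 2.

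Cnn1 (ENSMUSG00000001349, plus strand, chr9:22099216-22109630) encodes calponin 1, an actin-binding regulator of contraction. It was the faintest of the 10 genes, with 33 to 55 counts per library. It was at 0.876, 1.16 and 1.07 CPM in WT (1.04 ± 0.146, SD) and at 1.10, 1.22 and 0.875 CPM in Zeb2 cKO tissue (1.07 ± 0.176, SD). At such counts the counting error alone is an SD of 13.5% to 17.4%, about as large as the spread within either group. No library stood apart, and the log2 fold change was 0.037 (standard error 0.23), or 0.13 (standard error 0.26) without WT replicate 2.

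Smtn (ENSMUSG00000020439, minus strand, chr11:3517523-3540612) encodes smoothelin, a cytoskeletal protein of contractile smooth muscle. It was at 46.8, 19.3 and 30.2 CPM in WT (32.1 ± 13.9, SD) and at 34.4, 41.1 and 35.1 CPM in Zeb2 cKO tissue (36.9 ± 3.70, SD). The WT libraries spanned a wider range than the Zeb2 cKO libraries and enclosed them. Its log2 fold change was 0.20 (standard error 0.30), and -0.061 (standard error 0.19) without WT replicate 2.

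**Figure D1:**
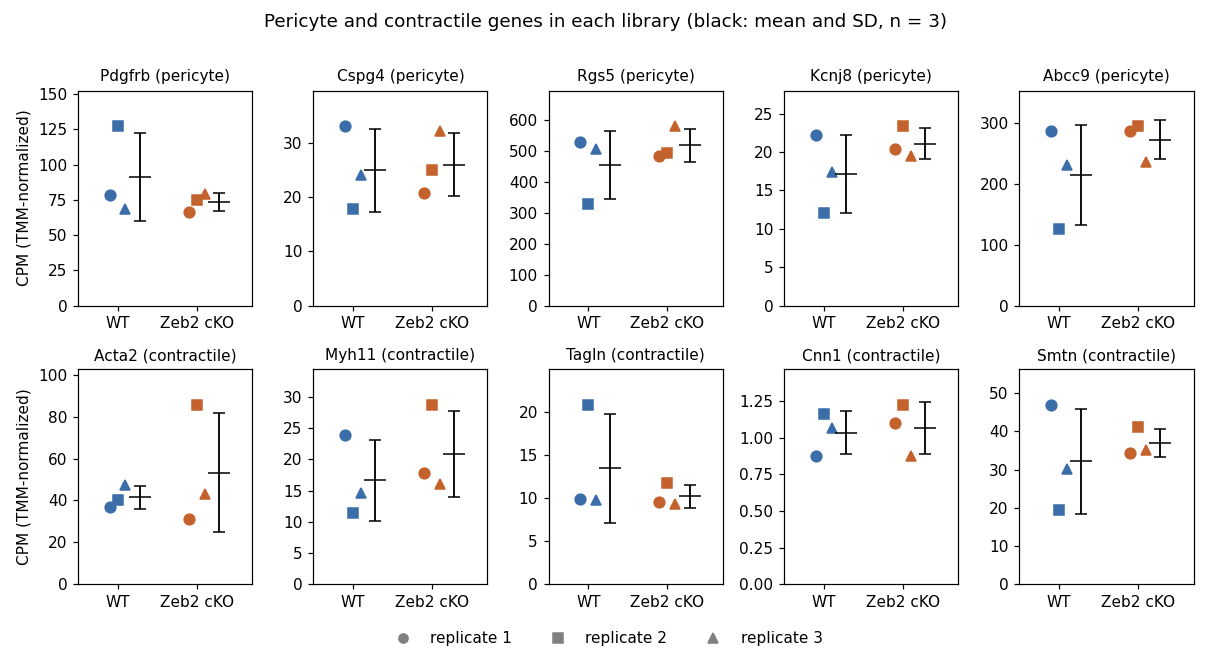
Levels of the 5 pericyte genes (upper panels) and the 5 contractile genes (lower panels) in CPM on linear axes that start at 0, by group and replicate, with the mean and SD of 3 libraries in black. The groups overlap for all 10 genes; WT replicate 2 is the highest point for Pdgfrb and Tagln and the lowest for 6 genes, and Zeb2 cKO replicate 2 is the highest for Acta2 (85.4 CPM) and Myh11 (28.6 CPM).

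With all 6 libraries none of the 10 genes passed the test. In the quasi-likelihood test of edgeR, with adjustment after Benjamini and Hochberg over 14746 genes, 0 members had an adjusted p under 0.05, where the background was 0 genes (0.0%), and DESeq2 called 2 genes, neither of them a member. The adjusted p was 0.957 for 8 members, 0.983 for Cspg4 and 0.989 for Cnn1. At an unadjusted p under 0.05 the test called 280 of all genes (1.9%) and 0 members, whose p ranged from 0.231 for Kcnj8 to 0.881 for Cnn1. Without WT replicate 2 it called 0 members as well, beside 2.63% of all genes (1.08% lower and 1.55% higher). Without WT replicate 1, Kcnj8 (unadjusted p = 0.0373) and Smtn (unadjusted p = 0.0400) were called higher in edgeR's test, 2 of 10 beside 2.04% of all genes, both with an adjusted p of 0.596. The groups overlapped for 10 of 10 members, whereas they did not overlap for 938 of all genes (6.36%). Exact permutation tests (two-sided) of single members gave p from 0.2 for Abcc9 to 0.8 for Cspg4, Acta2 and Cnn1, in a design whose smallest p is 0.1.

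The intervals were wide. The 95% intervals of the log2 fold changes covered 0 for all 10 members, from -0.89 to 0.26 for Pdgfrb, from -0.35 to 0.72 for Rgs5, from -0.48 to 1.21 for Acta2 and from -0.45 to 1.10 for Myh11. The SD among WT libraries was between 13.0% and 47.0% of the mean, and that among Zeb2 cKO libraries between 8.65% and 53.5%. For 8 members the WT group had the larger percentage, and Acta2 and Cnn1 were the exceptions.

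Of the 5 pericyte genes, 1 lay under -0.2 in log2 fold change (Pdgfrb) and 2 over 0.2 (Kcnj8 and Abcc9), and of the 5 contractile genes 1 lay under -0.2 (Tagln) and 2 over 0.2 (Acta2 and Myh11). Among all genes 22.6% lay under -0.2 and 15.9% over 0.2. The median log2 fold change was 0.19 for the pericyte genes and 0.20 for the contractile genes, beside -0.0069 for all genes. Both groups thus had the same counts on either side and nearly the same median. Without WT replicate 2 the medians were 0.00047 and 0.11, beside 0.0025 for all genes, and only Acta2 stayed past 0.2 in either direction, where 11.7% of all genes lay under -0.2 and 14.2% over 0.2. Leaving out Zeb2 cKO replicate 2 instead gave a contractile median of -0.068. For 8 members the estimate moved closer to 0 when WT replicate 2 was left out, Cspg4 and Cnn1 being the others.

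**Figure D2:**
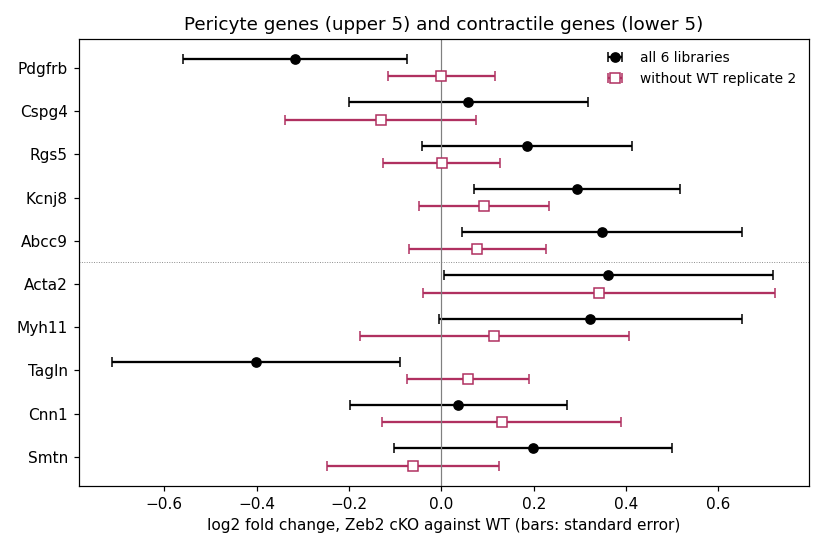
Log2 fold change of each gene, Zeb2 cKO against WT, with bars of 1 standard error, from all 6 libraries (filled circles) and without WT replicate 2 (open squares). The outlying negative values of Pdgfrb (-0.32) and Tagln (-0.40) move to 4.28e-05 and 0.058 without that library, and Acta2 remains at 0.34.

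Across the 6 libraries the genes did not divide into pericyte and contractile genes. WT replicate 2 was the lowest library for 6 of 10 members (Cspg4, Rgs5, Kcnj8, Abcc9, Myh11 and Smtn), as it was for 34.6% of all genes. It was the highest for Pdgfrb and Tagln, 2 of 10, as it was for 35.2% of all genes. Relative to the mean of the other WT libraries, its level was 2.12-fold for Tagln and 1.73-fold for Pdgfrb, against 0.483-fold for Abcc9, 0.501-fold for Smtn and 0.634-fold for Rgs5. Each sign included pericyte and contractile genes. Zeb2 cKO replicate 2 was the highest library for 5 of 10 members (Kcnj8, Abcc9, Acta2, Myh11 and Cnn1), where the background was 11.8% of all genes.

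Markers of other cell types moved with WT replicate 2. All 20 fibroblast genes were highest in it, as were 11 of 12 macrophage genes. It was the lowest library for 11 of 12 cardiomyocyte genes and 9 of 15 endothelial genes. None of the genes of these lists was at 0 in all libraries. Over the groups, the summed level of the fibroblast genes was 2470 to 12212 CPM in WT and 2655 to 3220 CPM in Zeb2 cKO tissue, and that of the endothelial genes 764 to 1015 CPM in WT and 904 to 1109 CPM in Zeb2 cKO tissue. Pdgfrb and Tagln were high where fibroblast genes were high, and Abcc9 was low where cardiomyocyte genes were low. Acta2, which activated fibroblasts also express, was not high in WT replicate 2, at 0.955-fold of the mean of the other WT libraries. The part of these cell types in the values of the members was not tested, and in bulk tissue fewer cells of a type and less RNA per cell cannot be told apart.

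**Figure D3:**
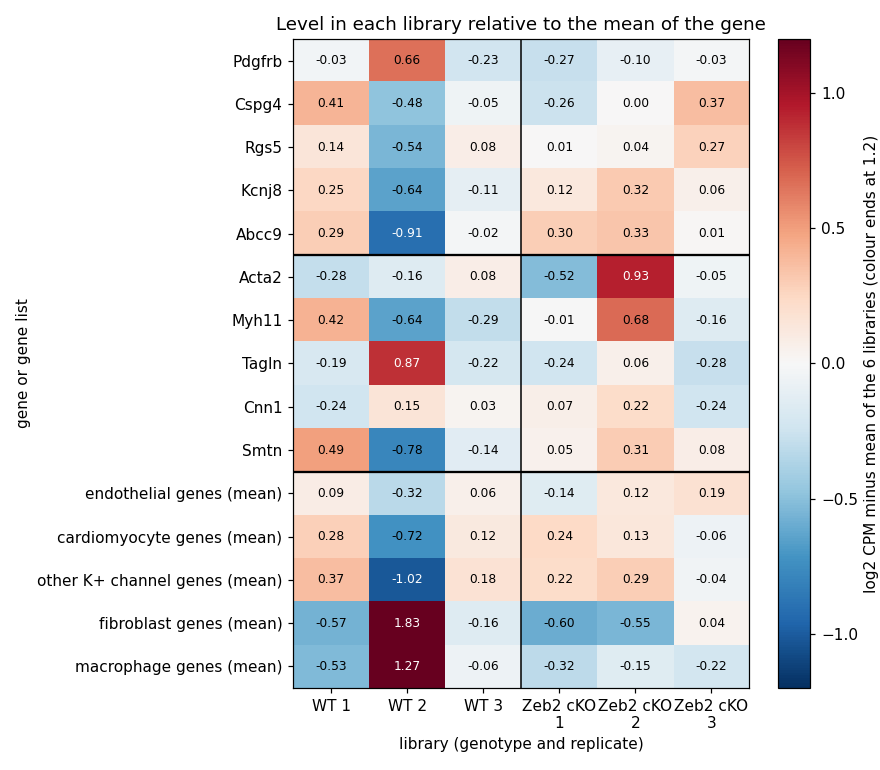
Log2 CPM of each gene in each library minus its mean over the 6 libraries, with the mean of 5 other gene lists below (blue is below the mean, red above, colours end at 1.2 in either direction). In the column of WT replicate 2, Pdgfrb (0.66) and Tagln (0.87) share the sign of the fibroblast genes (1.83), while Abcc9 (-0.91) and Smtn (-0.78) share that of the cardiomyocyte genes (-0.72) and the other potassium channel genes (-1.02).

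The size of the difference between profiles was measured as the root mean square (RMS) difference of centred log2 CPM over the 6 libraries. Of 45 pairs of members the closest was Kcnj8 with Smtn (0.12), followed by Kcnj8 with Abcc9 (0.14), Abcc9 with Smtn (0.15), Pdgfrb with Tagln (0.16) and Cspg4 with Rgs5 (0.17). The farthest pair was Abcc9 with Tagln (0.80). Smtn thus lay closer to the potassium channel subunits than to Tagln, and Pdgfrb closer to Tagln than to any other pericyte gene. All these profiles share the same 6 libraries, and WT replicate 2 weighs in each of them.

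Ratios of raw counts within a library do not depend on the normalization. Abcc9 over Kcnj8 was between 10.4 and 14.1 in all 6 libraries, a 1.35-fold range, with 12.2 ± 1.56 (SD, n = 3) in WT and 12.9 ± 1.03 (SD, n = 3) in Zeb2 cKO tissue. Cspg4 over Rgs5 also stayed within a 1.45-fold range. Rgs5 over Pdgfrb was 2.59 in WT replicate 2 and between 6.57 and 7.41 in the other 5 libraries. Among contractile genes, Smtn over Myh11 stayed within a 1.53-fold range and others were looser. Tagln over Myh11 was 1.81 in WT replicate 2 and between 0.411 and 0.669 elsewhere, and Acta2 over Tagln ran from 1.93 in WT replicate 2 to 7.25 in Zeb2 cKO replicate 2. For each of these ratios the groups overlapped.

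The contrast of contractile with pericyte genes was described by the mean log2 CPM of the 5 contractile genes minus that of the 5 pericyte genes in the same library. This difference was -2.90, -2.46 and -2.77 in WT (-2.71 ± 0.23, SD, n = 3) and -2.84, -2.41 and -3.00 in Zeb2 cKO tissue (-2.75 ± 0.31, SD, n = 3). The group means differed by -0.038, less than the SD of either group. The least negative values belonged to replicate 2 of each group. In Zeb2 cKO replicate 2 this came with the highest contractile level of the 6 libraries (4.11 log2 CPM), and in WT replicate 2 with the lowest pericyte level (6.01 log2 CPM). Without WT replicate 2 the group means differed by 0.088. With the median of the genes in place of the mean the difference was 0.35, of the other sign and larger than the pooled SD of the values above, so the contrast depended on how the genes were summarised.

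Set against 15 genes of the endothelial cells that line the vessels, the pericyte genes were higher by 0.82, 0.63 and 0.57 in WT (0.67 ± 0.13, SD, n = 3) and by 0.82, 0.69 and 0.65 in Zeb2 cKO tissue (0.72 ± 0.087, SD, n = 3), in units of log2 CPM. The difference of the group means was 0.044, and 0.025 without WT replicate 2. The contractile genes minus the endothelial genes gave -2.04 ± 0.19 in WT and -2.03 ± 0.32 in Zeb2 cKO tissue (SD, n = 3). By these means neither level relative to the endothelium differed between the groups beyond the spread between mice. With the median of the genes in place of the mean, the group means of pericyte minus endothelial level differed by -0.38, which turned the sign and exceeded the pooled SD of the values based on means.

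**Figure D4:**
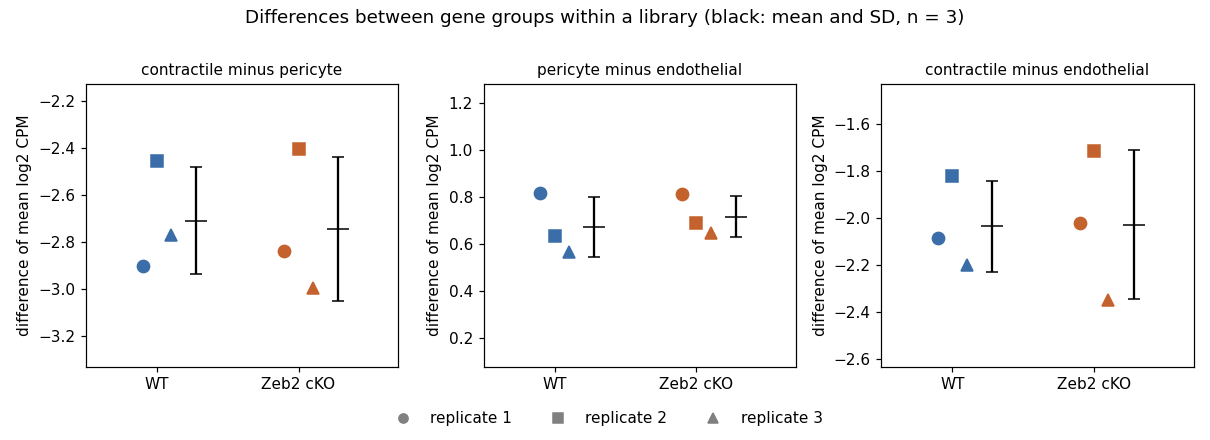
Difference of mean log2 CPM between 2 gene groups within each library, by group and replicate, with the mean and SD of 3 libraries in black; each vertical axis spans the same range and does not start at 0. The groups overlap in all 3 panels, and replicate 2 of either group holds the highest value in the panels with contractile genes (-2.46 and -2.41 for contractile minus pericyte).

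Per length, in CPM per kilobase of exon over the 6 libraries, Rgs5 was by far the most abundant member (107 ± 18.6, SD, n = 6). It was followed by Abcc9 (29.0 ± 7.67), Acta2 (21.6 ± 8.85), Pdgfrb (15.0 ± 4.11), Smtn (7.88 ± 2.15), Kcnj8 (7.51 ± 1.60), Tagln (5.96 ± 2.25), Myh11 (2.46 ± 0.84), Cspg4 (2.13 ± 0.51) and Cnn1 (0.384 ± 0.053), with the SD of 6 libraries beside each. The ranges of neighbours did not overlap between Rgs5 and Abcc9, Pdgfrb and Smtn, Tagln and Myh11, and Cspg4 and Cnn1. They overlapped for all other neighbours, so the order of Abcc9, Acta2 and Pdgfrb, that of Smtn, Kcnj8 and Tagln, and that of Myh11 and Cspg4 is not fixed by these libraries. Between the subunits of the potassium channel, the level of Abcc9 per length was above that of Kcnj8 in each library.

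The genes closest to Rgs5 in profile, among 12327 genes with a mean of at least 1 CPM, were Cuedc1 (RMS difference 0.028), Ptprk (0.030) and 2610203C22Rik (0.035). Cuedc1 was at 14.0, 8.91 and 13.2 CPM in WT and at 13.0, 12.7 and 15.0 CPM in Zeb2 cKO tissue, lowest in WT replicate 2 and highest in Zeb2 cKO replicate 3, as Rgs5 was. Of the other members, Cspg4 came closest to Rgs5, at rank 1359, and Pdgfrb stood at rank 10566. The genes closest to Myh11 were Adamts19 (0.11), Prdx3 (0.12) and Sort1 (0.13), and the closest members were Smtn at rank 45 and Kcnj8 at rank 53. Acta2, the other contractile gene that was highest in Zeb2 cKO replicate 2 by a wide margin, stood at rank 5680 from Myh11.

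Of 20 other mural cell genes, all tested, 0 passed an unadjusted p under 0.05 in edgeR's test, 6 lay under -0.2 and 5 over 0.2 in log2 fold change, with a median of 0.053 (-0.038 without WT replicate 2). Gucy1a1 and Gucy1b1, the subunits of the nitric oxide receptor guanylate cyclase, were high in WT replicate 2. Gucy1a1 was at 29.2, 124 and 28.1 CPM in WT and at 28.9, 32.1 and 28.3 CPM in Zeb2 cKO tissue, and its log2 fold change was -1.02 (standard error 0.58), or 0.059 without that library. Other pericyte markers were low in it: Vtn (vitronectin) was at 0.517-fold, Cox4i2 at 0.551-fold and Notch3, the Notch receptor of mural cells, at 0.637-fold of the mean of the other WT libraries. Of all 20, 8 were highest and 9 lowest in WT replicate 2, near the 35.2% and 34.6% of all genes. Foxs1, a forkhead factor of mural cells, and Gja4, which encodes connexin 37, were lower without overlap of the groups, 2 of 20, beside 2.97% of all genes. Foxs1 was at 3.66 ± 0.56 CPM in WT and at 2.77 ± 0.66 CPM in Zeb2 cKO tissue (SD, n = 3; log2 fold change -0.41, standard error 0.23, or -0.27 without WT replicate 2). Rgs4, a relative of Rgs5, had the smallest p of the list (log2 fold change -0.31, standard error 0.15), with overlapping groups.

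Of 22 other smooth muscle genes, 5 lay under -0.2 and 5 over 0.2 in log2 fold change, with a median of -0.077 (-0.082 without WT replicate 2). At an unadjusted p under 0.05, 1 of them was higher, beside 1.04% of all genes, and 0 were lower, beside 0.861% of all genes. That gene was Tpm2, which encodes the beta-tropomyosin of smooth and skeletal muscle. It was at 10.4, 9.57 and 9.77 CPM in WT (9.90 ± 0.41, SD) and at 13.0, 11.5 and 12.2 CPM in Zeb2 cKO tissue (12.2 ± 0.74, SD). All 3 Zeb2 cKO libraries were above the WT libraries, as for 3.39% of all genes. The log2 fold change was 0.30 (standard error 0.11, 0.28 without WT replicate 2), and the adjusted p from edgeR's test was 0.957. Actg2, the enteric actin, was lower without overlap at no more than 1.03 CPM in any library, 1 of 22 beside 2.97% of all genes. It held 10, 45 and 11 counts in WT and 13, 11 and 12 counts in Zeb2 cKO libraries. Its log2 fold change of -1.11 (standard error 0.58) moved to -0.17 without WT replicate 2. Myl9, the regulatory light chain of smooth muscle myosin, was at 14.2, 22.4 and 13.4 CPM in WT and at 12.0, 21.9 and 12.5 CPM in Zeb2 cKO tissue, high in replicate 2 of both groups, where Tagln and Acta2 respectively had their highest values.

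Of 11 regulators of the contractile genes, 3 lay under -0.2 and 1 over 0.2 in log2 fold change, with a median of -0.020 (-0.16 without WT replicate 2). Srf and Myocd, the core of the contractile programme, were at 25.8 ± 8.74 and 37.8 ± 15.4 CPM in WT (SD, n = 3). In Zeb2 cKO tissue they were at 27.3 ± 0.89 and 38.5 ± 3.13 CPM (SD, n = 3). The cell types that these counts came from were not tested. Both genes were lowest in WT replicate 2, as were 11 of 12 cardiomyocyte genes. The log2 fold change was 0.086 for Srf and 0.026 for Myocd, and -0.17 and -0.28 without that library. Mkl1, which encodes the actin-sensing SRF coactivator MRTF-A, was at 5.87, 7.82 and 6.12 CPM in WT and at 3.66, 4.91 and 5.49 CPM in Zeb2 cKO tissue. Its groups did not overlap, and its log2 fold change was -0.49 (standard error 0.20, unadjusted p = 0.0425 and adjusted p = 0.957 in edgeR's test), or -0.35 (unadjusted p = 0.0912) without WT replicate 2. It was the 1 regulator called at an unadjusted p under 0.05, beside 0.861% of all genes called lower. Gata6, a transcription factor of vascular smooth muscle and of cardiomyocytes, was also lower without overlap (log2 fold change -0.17, standard error 0.10), which made 2 of 11 beside 2.97% of all genes. The related coactivator gene Mkl2 had a log2 fold change of 0.020. Klf4, a repressor of contractile genes, was at -0.37 on that scale (standard error 0.20) with overlapping groups. Without WT replicate 2, Klf4 was at -0.53 (unadjusted p = 0.0114 in edgeR's test) and Myocd at -0.28 (unadjusted p = 0.0286 in edgeR's test), so that 2 of the 11 regulators were then lower at an unadjusted p under 0.05, beside 1.08% of all genes. Their adjusted p was 1.00.

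Of 21 ligands and receptors that act between endothelium and mural cells, 10 lay under -0.2 and 6 over 0.2 in log2 fold change, with a median of -0.15, which was 0.0058 without WT replicate 2. In edgeR's test 0 passed an unadjusted p under 0.05, and 1 was lower at that threshold without WT replicate 2, beside 1.08% of all genes. That gene was S1pr1, a sphingosine 1-phosphate receptor of endothelium (log2 fold change -0.44 without that library and -0.22 with it). Pdgfb, the ligand of PDGFRB, was at 19.0, 8.80 and 15.6 CPM in WT and at 12.4, 15.1 and 18.7 CPM in Zeb2 cKO tissue, and it was lowest in WT replicate 2, where Pdgfrb was highest. Angpt1, the angiopoietin that mural cells release, was at 23.2 ± 1.58 CPM in WT and at 27.7 ± 8.14 CPM in Zeb2 cKO tissue, and its receptor Tek at 53.8 ± 1.00 and 53.4 ± 0.94 CPM (SD, n = 3). Ednra, the endothelin receptor of smooth muscle, was lower without overlap of the groups, 1 of 21 beside 2.97% of all genes, at 15.7 ± 0.95 CPM in WT and 13.1 ± 1.22 CPM in Zeb2 cKO tissue (SD, n = 3; log2 fold change -0.26, standard error 0.12, -0.27 without WT replicate 2).

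The 4 other genes of potassium channels set beside Kcnj8 and Abcc9, most of them expressed in cardiomyocytes, were Kcnj11, Abcc8, Kcnj2 and Kcnj12. All 4 were lowest in WT replicate 2. Of the mean of the other WT libraries, Kcnj11 was at 0.345-fold, Abcc8 at 0.347-fold and Kcnj12 at 0.432-fold. These were below the values of Kcnj8 (0.607-fold) and Abcc9 (0.483-fold), whereas Kcnj2, at 0.522-fold, lay between those 2 values. The log2 fold changes of these 4 genes were between 0.075 and 0.35, and between -0.23 and 0.0010 without WT replicate 2. Kcnj8, Abcc9 and the 4 other genes thus shared the place of their lowest library, and the groups overlapped for each of them.

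Some of the reads could belong to other genes. Of the longest transcript of Tagln, 61.8% is shared with the opposite-strand genes Pcsk7 and Gm48529, and of that of Smtn 20.2% is shared with Gm11946 on the opposite strand. The kit kept the strand, but the strand option of the counting is not given in the sources used here, so the counts of Tagln and Pcsk7 may not be fully separate. Pcsk7 was at 10.4 ± 2.00 CPM in WT and at 11.1 ± 0.24 CPM in Zeb2 cKO tissue (SD, n = 3) and was lowest in WT replicate 2, where Tagln was highest. Gm11946 held at most 8 counts per library. For Abcc9, 4.15% of the transcript matched other transcripts, and for the other 7 members none did at 75 bases and 95% identity.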

How the data were processed

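RNA-seq was available for 3 WT and 3 Zeb2 cKO mice, grouped by the sample labels. The authors deposited the raw counts of all libraries in 1 table, and the methods name the STAR workflow with Gencode M4 for alignment and counting of single-end reads of 75 bases from stranded libraries. The STAR version, the strand option and how reads with several matches were treated are not given in the sources used here. The differential expression tool of the study, DESeq, was not used here.

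Symbols, coordinates and exon lengths came from Gencode M21 (GRCm38), by gene identifier. Counts were normalized with TMM, filtered with filterByExpr and tested with glmQLFit and glmQLFTest in edgeR 4.0.16 (R 4.3.3), on genotype alone. The prior count was 0.125 for log2 fold changes, and adjustment (Benjamini-Hochberg) ran over 14746 genes. Mean log2 CPM used a prior count of 2. Single genes were also compared with exact permutation tests. DESeq2 1.42.0 was an alternative, beside other size factors, no filter, robust dispersions, no mitochondrially encoded genes, a replicate block and leaving out each library. Shared sequence was searched with BLAST 2.17.0, and upstream stretches came from RefSeq (GRCm38.p6).

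The steps were tested on simulated data of 14600 genes, where edgeR found 27 of 98 genes with a log2 change of 1, 86 of 100 with one of 2, and called 5 of 14402 unchanged genes. At 33 to 55 counts per library, counting error is as large as the spread for Cnn1. The other members had 373 counts or more. Replicates are separate mice.

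The members and the gene lists were chosen with earlier results of these data known. Named are all 10 members, Zeb2 and the 3 genes closest in profile to Rgs5 and to Myh11. Other genes of the lists were named after their values were seen, for their role, for a small p or because their groups did not overlap. The genes with the smallest p of a list were not all named. Left out were, among others, Nrip2 (log2 fold change 1.04, 0.83 without WT replicate 2), Csrp2 (-0.76, -0.088), Angpt2 (-0.96, 0.011) and Tgfbr1 (-0.70, -0.0034). Lox, the 1 fibroblast gene called lower, was at -2.54 (unadjusted p = 0.0460 in edgeR's test), or -0.30 without WT replicate 2.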

Additional observations from a re-analysis of the deposited data

How the results depend on the processing

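The estimates rest on 3 mice per group with 1 WT library of another composition, and Cnn1 rests on so few counts that counting error is as large as its spread. Of 210 values recomputed under the alternatives, 183 kept their direction and side of the threshold or stayed within the spread. No member passed an adjusted p of 0.05 under any of them, and the adjusted p ranged from 0.596 to 1.00.

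Without the filter on low counts, edgeR called 600 genes at an unadjusted p under 0.05 in place of 280, of which 326 were lower (127 before) and 274 higher (153 before). DESeq2 called 217 lower and 144 higher genes, and 2 genes at an adjusted p under 0.05 in place of 0. Leaving out each library in turn gave 122 to 1134 genes, 47 to 827 lower and 75 to 307 higher, with 0 after adjustment. The log2 fold changes then ranged from -0.49 to 4.28e-05 for Pdgfrb, from -0.13 to 0.31 for Cspg4 and from 0.00047 to 0.31 for Rgs5. The range was 0.093 to 0.52 for Kcnj8, 0.077 to 0.62 for Abcc9 and 0.025 to 0.68 for Myh11. It was -0.15 to 0.63 for Acta2, -0.59 to 0.058 for Tagln, -0.068 to 0.16 for Cnn1 and -0.061 to 0.57 for Smtn. The contractile median ranged from -0.068 to 0.28, the difference of contractile minus pericyte level from -0.21 to 0.088 and that of pericyte minus endothelial level from -0.0077 to 0.12. With the median of the genes in place of the mean, these differences were 0.35 (from -0.038) and -0.38 (from 0.044), and the cause was not tested.

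Deviations of same-numbered libraries correlated at 0.088, -0.14 and -0.087, and 0 of 6 libraries correlated best with their own number. These values gave no sign that the replicate numbers pair the samples. They cannot exclude pairing, since each group held only 3 libraries and WT replicate 2 differed in composition. With a replicate block 247 genes had an unadjusted p under 0.05, and the pericyte and contractile medians were 0.21 and 0.23.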

Other observations

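Lists of 3 further cell types of the heart wall were read in the same libraries. Of 7 adipocyte genes 2 passed the filter on low counts. Car3 encodes a carbonic anhydrase of fat and skeletal muscle. It was at 0.531, 0.456 and 0.599 CPM in WT and at 4.12, 1.41 and 0.726 CPM in Zeb2 cKO tissue. These were 20, 20 and 23 counts in WT and 206, 61 and 39 counts in Zeb2 cKO libraries. The log2 fold change was 1.98 (standard error 0.64, unadjusted p = 0.0177 and adjusted p = 0.957 in edgeR's test). It was called higher, beside 1.04% of all genes, and was higher without overlap of the groups, beside 3.39% of all genes. Cfd, which encodes the adipokine complement factor D, was higher by 1.28 on the log2 scale (standard error 0.61), its groups overlapped, and like Car3 it was highest in Zeb2 cKO replicate 1. The summed level of the adipocyte genes was 0.8 to 1.5 CPM in WT and 1.7 to 7.1 CPM in Zeb2 cKO tissue.

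Of 7 mesothelial genes 6 were tested and 0 had an unadjusted p under 0.05 in edgeR's test, with a median log2 fold change of 0.052 that was 0.96 without WT replicate 2. Without that library 2 of them were higher at an unadjusted p under 0.05, beside 1.55% of all genes. They were Krt19 (log2 fold change 1.74) and Msln (1.15), both with an adjusted p of 0.9997 in edgeR's test. Krt19 held 3, 23 and 4 counts in WT and 16, 15 and 15 counts in Zeb2 cKO libraries, so its estimate rested on few counts. Of 7 Schwann cell genes 5 were tested and 0 had an unadjusted p under 0.05, with a median of 0.064, or 0.31 without WT replicate 2. In that library 4 mesothelial genes had their highest value, among them Msln (mesothelin) at 3.53 CPM against 0.770 and 0.625 CPM in the other WT libraries.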
